A study of Homo sapiens with 4 samples.

Results

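The E proteins (TCF3, TCF4 and TCF12) and their ID inhibitors (ID1, ID2, ID3 and ID4) were followed by RNA sequencing in IMR-32 cells, an established human neuroblastoma line with amplified MYCN, with and without knockdown of NeuroD1. The 7 genes were chosen by name, and all 7 were found among the 60612 genes of the count table. The 2 shControl libraries came from cells with a control short hairpin RNA and the 2 shNeuroD1 libraries from cells with a short hairpin RNA against NeuroD1. In both groups the hairpin was switched on with doxycycline, at 1 µg/mL for 48 h. The genotype of the control cells is given as WT, and no other allele or agent is given for either group. All 4 libraries came from the same line, and neither the NeuroD1 hairpin nor whether replicate libraries were separate cultures is given in the labels. The numbers in the shNeuroD1 titles also end the names of hairpins used in the study, so these libraries may carry different hairpins, and they were read here as replicate numbers. The p-values therefore measure only the spread between these libraries, which may be technical.

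E proteins are class I basic helix-loop-helix (bHLH) transcription factors that are made in most cell types. They pair with tissue-restricted class II bHLH factors, such as NeuroD1 and HAND2, and the pair binds short DNA sites called E-boxes through the basic regions of both partners. ID proteins have the helix-loop-helix but no basic region, so they pair with E proteins and keep them off DNA, and in the developing nervous system they are known for holding cells in a precursor state.

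TCF12 has an alternative exon of 72 bases (GRCh38 chr15:57252421-57252492, plus strand). It is shown because the deposited tables separate transcripts that keep it from transcripts that skip it.
TCF12 alternative exon: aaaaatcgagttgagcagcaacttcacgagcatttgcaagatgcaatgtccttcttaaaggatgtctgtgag

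The sequencing depth was alike, at 15403815 and 16482463 counts in shControl and 14665210 and 14677569 counts in shNeuroD1. The share of counts in mitochondrial genes was 4.37% and 4.59% in shControl but 5.39% and 5.51% in shNeuroD1, and the part of this difference in the results below was not tested. NEUROD1, the targeted gene, fell from 6174 and 6582 counts to 969 and 886 (log2 fold change -2.77, SE 0.0504, edgeR adjusted p 8.6e-29). All 10 adrenergic neuroblastoma markers, GATA3 and MYCN among them, were at 1 CPM (counts scaled to library size after TMM correction) or more, with a summed level of 4073 to 4170 CPM in shControl and 3805 to 3836 CPM in shNeuroD1. Of the markers of other cell types, 3 of 6 fibroblast genes (COL1A1, LUM and PDGFRB) reached 1 CPM, and none of the endothelial, leukocyte or epithelial genes did. The fibroblast genes summed to 44.6 and 49.2 CPM in shControl and to 35.1 and 37.9 CPM in shNeuroD1. In bulk RNA, fewer cells of a kind and less RNA per cell cannot be told apart.

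In counts after NeuroD1 knockdown all 3 E protein genes fell, ID1 fell, ID2 and ID3 rose, and ID4 did not pass the test, while in FPKM the values of TCF4 turned slightly upward and ID1 did not pass. A gene was called at an adjusted p under 0.05 in edgeR's quasi-likelihood test, with adjustment over all genes tested. By this rule 4 of the 7 genes were called lower and 2 were called higher, where 28.2% of the 17537 genes tested were called lower, 26.8% were called higher and 55% were called in either direction. Calls were thus common among all genes. With a log2 fold change beyond 1 in size as well, TCF12 alone was called, where 5.14% of all genes were called lower, 8.79% higher and 13.9% either way.

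TCF12 (ENSG00000140262, HEB), the E protein best known from lymphocytes, muscle and the nervous system, had 7044 and 7805 counts in shControl, against 3238 and 3317 in shNeuroD1. It lies at chr15:56918623-57299281 on the plus strand. The groups did not overlap, as was the case for 76.1% of all genes tested. The mean went from 484.7 ± 9.62 CPM (SD, n = 2) to 215.3 ± 3.52 CPM (SD, n = 2), 44.4% of the control level. In counts this was the largest fall among the 7 genes, with a log2 fold change of -1.17 (its SE 0.0423, 95% interval -1.26 to -1.08, edgeR adjusted p 3.8e-21).

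TCF3 (ENSG00000071564, E2A, chr19:1609290-1652605, minus strand) encodes E12 and E47. It had 3598 and 3754 counts in shControl, against 2018 and 1903 in shNeuroD1, and every shNeuroD1 library lay below both shControl libraries. The mean level fell from 240.3 ± 5.45 CPM (SD, n = 2) to 128.8 ± 5.43 CPM (SD, n = 2), 53.6% of control (log2 fold change -0.90, SE 0.0468, 95% interval -0.99 to -0.80, edgeR adjusted p 5.0e-17). Its interval did not overlap that of TCF12. In FPKM summed over transcript starts the order of the falls turned, with TCF3 at -1.70 and TCF12 at -1.25 on the log2(FPKM + 1) scale. Summed over transcript ends TCF3 was at -0.76, and TCF12 has no end listed.

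TCF4 (ENSG00000196628, E2-2, chr18:55222331-55664787, minus strand) is the E protein whose loss of 1 copy causes Pitt-Hopkins syndrome. It had 4831 and 5476 counts in shControl, against 4195 and 4212 in shNeuroD1. The groups were apart but close, at 336.3 ± 12.1 CPM (SD, n = 2) against 276.2 ± 0.602 CPM (SD, n = 2), 82.1% of control. TCF4 had the smallest fall of the 3 E protein genes (log2 fold change -0.28, SE 0.0426, 95% interval -0.37 to -0.20, edgeR adjusted p 1.0e-06). In the deposited FPKM values (fragments scaled to transcript length and library size, summed over transcript starts) the fall was absent, at 31.3 and 34.6 FPKM in shControl and 31.5 and 36.1 FPKM in shNeuroD1 (0.033 on the log2(FPKM + 1) scale, limma adjusted p 0.889). The fall of TCF4 was therefore seen in counts but not in FPKM.

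ID2 and ID3 moved the other way. ID2 (ENSG00000115738, chr2:8678845-8684453, plus strand), which also binds hypophosphorylated retinoblastoma protein, had 1042 and 1039 counts in shControl, against 1721 and 1629 in shNeuroD1. Both shNeuroD1 libraries lay above both shControl libraries, at 110.1 ± 4.35 CPM (SD, n = 2) against 68.1 ± 3.72 CPM (SD, n = 2). The rise came to 0.69 in log2 units (SE 0.0564, 95% interval 0.58 to 0.81, edgeR adjusted p 3.2e-12), or 162% of control. An antisense gene, ID2-AS1, shares 38 exon bases with ID2 on the opposite strand and had 60 and 58 counts in shControl, against 104 and 139 in shNeuroD1, and since the use of strand in counting is not given, reads over those bases cannot be assigned.

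ID3 (ENSG00000117318, chr1:23557918-23559794, minus strand), an inhibitor known as a quick target of BMP signalling, had 348 and 356 counts in shControl, against 661 and 646 in shNeuroD1. Replicates were close and the groups far apart, at 23.0 ± 0.842 CPM (SD, n = 2) and 42.9 ± 0.726 CPM (SD, n = 2), 187% of control. ID3 had the largest rise among the 7 genes (log2 fold change 0.90, SE 0.0799, 95% interval 0.74 to 1.06, edgeR adjusted p 2.4e-11).

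ID1 (ENSG00000125968, chr20:31605283-31606515, plus strand), another target of BMP signalling, fell where ID2 and ID3 rose. It had 1165 and 1183 counts in shControl, against 908 and 944 in shNeuroD1, or 76.8 ± 3.21 CPM (SD, n = 2) and 60.8 ± 1.63 CPM (SD, n = 2). The groups did not overlap, and the level in shNeuroD1 was 79.3% of control (log2 fold change -0.33, SE 0.0593, 95% interval -0.46 to -0.21, edgeR adjusted p 1.5e-05). In FPKM the libraries were nearer, at 40.3 and 38.6 in shControl and 36.0 and 37.8 in shNeuroD1, and the difference of -0.096 on the log2(FPKM + 1) scale did not pass (limma adjusted p 0.584).

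ID4 (ENSG00000172201, chr6:19837386-19840684, plus strand), which is best known from neural and mammary precursors, was near the lower end of what was measured. It had 56 and 58 counts in shControl, against 82 and 55 in shNeuroD1, so the groups overlapped. At this depth the estimate was 0.27 on the log2 scale with a 95% interval of -0.18 to 0.73 (SE 0.223, edgeR adjusted p 0.314). Without shNeuroD1 replicate 1 it was -0.046, and without shNeuroD1 replicate 2 it was 0.53.

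**Figure D1:**
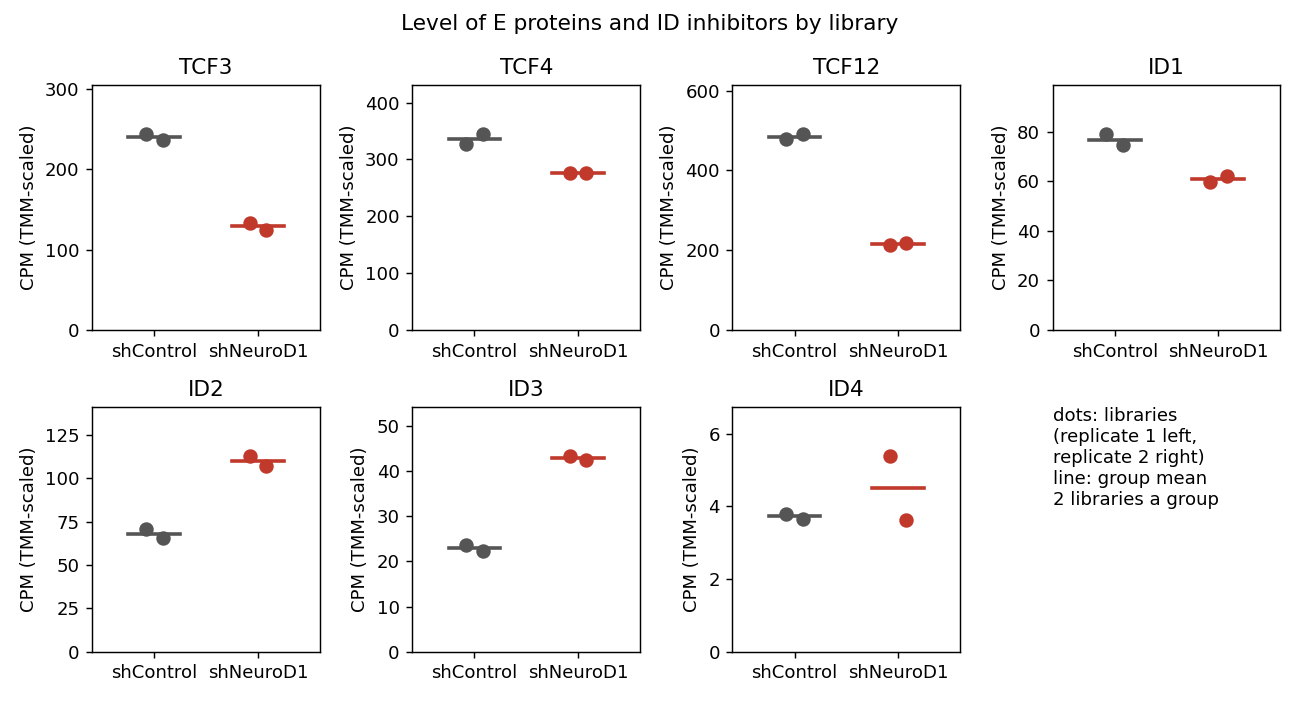
Level of each gene in each library, in CPM (TMM-scaled) on axes that start at 0, with dots for libraries and a line for the mean of the 2 libraries of a group. In these counts, though not in FPKM for TCF4, TCF3, TCF4, TCF12 and ID1 are lower in both shNeuroD1 libraries, ID2 and ID3 are higher in both, and the ID4 libraries overlap.

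**Figure D2:**
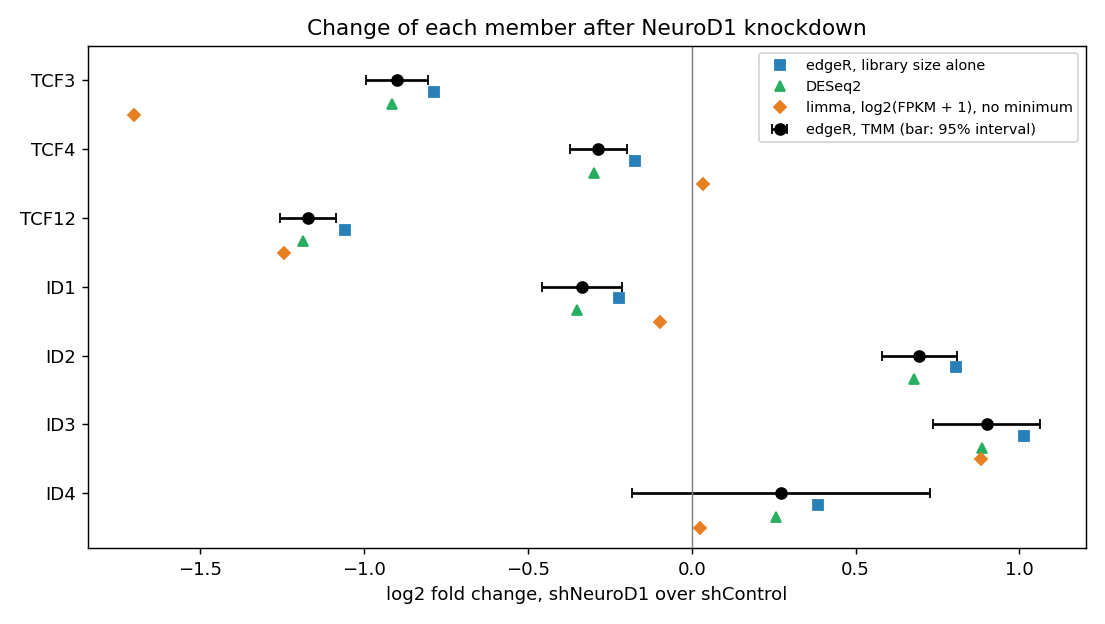
Log2 fold change of each gene, shNeuroD1 over shControl, with black dots and 95% intervals from edgeR with TMM scaling, and coloured marks for library size alone, DESeq2 and limma on FPKM. The orange FPKM mark of TCF4 lies at 0.033 and that of TCF3 at -1.70, away from the count-based marks, and ID2 has none because its starts are not listed in shControl.

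To set the genes against each other, levels were divided by the length of each gene's merged exons (CPM per kb). In shControl the order on this scale was ID1 at 62.3 ± 2.60, TCF12 at 51.3 ± 1.02, TCF3 at 39.5 ± 0.896, ID2 at 30.9 ± 1.69, ID3 at 12.8 ± 0.469, TCF4 at 12.1 ± 0.434 and ID4 at 1.59 ± 0.0443 CPM per kb (SD, n = 2 each). ID3 and TCF4 were neighbours whose means differed by less than their summed SDs. In shNeuroD1 ID2, at 49.9 ± 1.97 CPM per kb, and ID1, at 49.3 ± 1.32, stood first and could not be ordered beyond their spread. ID3 followed at 23.9 ± 0.404 CPM per kb, then TCF12 at 22.8 ± 0.373, TCF3 at 21.2 ± 0.893, TCF4 at 9.92 ± 0.0216 and ID4 at 1.92 ± 0.536. TCF12 had thus stood above ID2 in shControl and stood below it in shNeuroD1, which also held with the longest transcript as length (80.0 against 33.3 CPM per kb in shControl and 35.5 against 53.9 in shNeuroD1). FPKM offers no common measure, since ID2 has no start listed in shControl and TCF12 no end. In shNeuroD1 ID2 had 31.3 and 55.3 FPKM over ends, on both sides of TCF12 at 40.7 and 44.7 FPKM over starts. Other places in the order turned with the length used. With the longest transcript TCF12, at 80.0 CPM per kb, stood above ID1, at 62.3, in shControl, and in shNeuroD1 TCF12, at 35.5, stood above ID3, at 34.3, as it did in FPKM (42.7 against 26.5). TCF4's level moved most between these lengths, because its merged exons span 27828 bases and its longest transcript 8343.

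The summed E protein level was 102.5 and 103.3 CPM per kb in shControl and 54.3 and 53.6 in shNeuroD1. The summed ID level was 110.9 and 104.1 CPM per kb in shControl and 126.2 and 123.9 in shNeuroD1. The ratio of the ID sum to the E protein sum was 1.08 and 1.01 in shControl but 2.33 and 2.31 in shNeuroD1, with no overlap between the groups. With the longest transcript as the length the mean ratio was 0.664 in shControl and 1.43 in shNeuroD1, so its height, but not its order, moved with the length used. With 2 libraries against 2 an exact permutation test cannot go below a two-sided p of 0.333, so these levels and ratios are given as values. They are RNA levels and do not measure protein.

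Within each family the make-up per kb of merged exons also differed between the groups. ID1 made up 57.8% and 58.0% of the ID sum in shControl and 38.4% and 40.6% in shNeuroD1, while ID2 went from 28.9% and 28.5% to 40.7% and 39.1%. ID3 went from a mean of 11.9 ± 0.0965% of the ID sum to 19.1 ± 0.0802% (SD, n = 2 each). In the E protein sum TCF12 held 49.3% and 50.4% in shControl and 41.5% and 43.1% in shNeuroD1, and TCF4 went from a mean of 11.7 ± 0.358% to 18.4 ± 0.210% (SD, n = 2 each). TCF3 kept a share that overlapped between the groups, at 39.2% and 37.6% in shControl and 40.2% and 38.4% in shNeuroD1. In FPKM summed over transcript starts this did not hold. There TCF3 made up 19.7% and 14.4% of the E protein sum in shControl but 11.4% and 7.40% in shNeuroD1, with no overlap. Over starts TCF3 had 32.2 and 23.5 FPKM in shControl and 9.31 and 6.45 in shNeuroD1. Over ends it had 35.4 and 25.3, then 17.1 and 17.4, and shares over ends were not run.

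**Figure D3:**
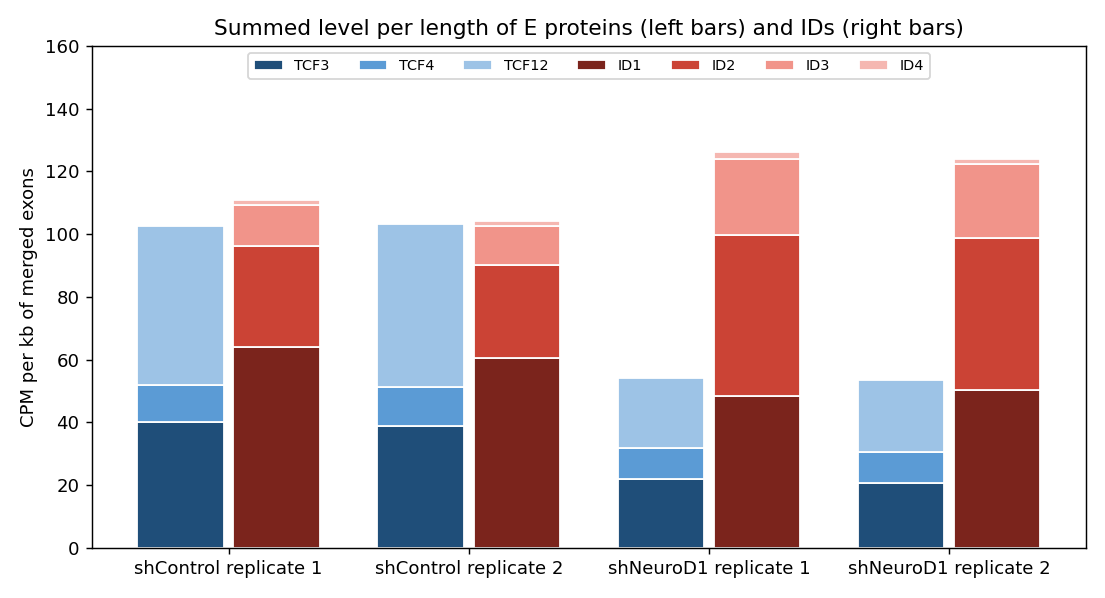
Summed level of the E proteins (left bar of each pair) and the ID inhibitors (right bar) in each library, in CPM per kb of merged exons on an axis that starts at 0, with a shade for each gene. The E protein bars stand at 102.5 and 103.3 in shControl and at 54.3 and 53.6 in shNeuroD1, and the ID bars at 110.9 and 104.1 and at 126.2 and 123.9.

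The FPKM tables list transcript starts and exon choices in each library. They hold no counts, so the depth behind a share is unknown and no test was made. TCF4 was read from upstream starts (chr18:55585280-55589846) that lead to coding sequences of up to 677 residues in GENCODE, and from internal starts (chr18:55321255-55322345) whose coding sequences have 315 to 511 residues. The upstream starts gave 23.1 and 22.6 FPKM in shControl and 18.8 and 16.4 FPKM in shNeuroD1. The internal starts gave 8.09 and 11.9 FPKM in shControl and 12.5 and 19.5 FPKM in shNeuroD1. The forms thus went in opposite directions, and the internal share was 25.9% and 34.3% in shControl but 39.9% and 54.1% in shNeuroD1, with no overlap but a wide spread within each group. The shControl libraries also differed in which upstream start carried the FPKM, with 16.5 and 1.34 FPKM at the start chr18:55587045-55587349 and 0.419 and 16.0 FPKM at chr18:55588038-55588192.

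TCF12 had the same kind of layout, with upstream starts (chr15:56918623-56919988, coding sequences of up to 706 residues) and an internal start (chr15:57219037-57219590, 446 to 536 residues). The internal share was 80.3% and 41.6% in shControl against 49.7% and 49.7% in shNeuroD1, so the shControl libraries lay on both sides of the shNeuroD1 libraries and no difference was seen. Summed over all starts TCF12 was steady within groups, at 99.7 and 105.4 FPKM in shControl and 40.7 and 44.7 FPKM in shNeuroD1 (-1.25 on the log2(FPKM + 1) scale). The exon of 72 bases shown above was kept in 41.2% and 48.3% of TCF12 FPKM at that junction in shControl and in 49.0% and 55.1% in shNeuroD1. The highest shControl library and the lowest shNeuroD1 library were nearly level.

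TCF3 makes alternative proteins, E12 and E47, from alternative exons that code for the bHLH domain. The E47 exon took 15.5% and 23.9% of TCF3 FPKM over both exons in shControl and 15.0% and 14.9% in shNeuroD1. E12 was the main form in every library. The E47 exon itself, as FPKM, went from 5.49 and 5.81 in shControl to 2.56 and 2.57 in shNeuroD1, and the E12 exon joined to the last exon from 29.9 and 18.5 to 14.5 and 14.7. Both forms were thus lower in both shNeuroD1 libraries. Summed over starts TCF3 had 32.2 and 23.5 FPKM in shControl and 9.31 and 6.45 in shNeuroD1, while summed over ends it had 35.4 and 25.3 and then 17.1 and 17.4.

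ID1 and ID3 each had a single listed form. ID3 was at 13.5 and 14.4 FPKM in shControl and 26.9 and 26.1 FPKM in shNeuroD1, and this rise passed in FPKM as well (0.88 on the log2(FPKM + 1) scale, limma adjusted p 0.0345). For ID2 no start was listed in shControl, and its ends summed to 32.0 and 29.7 FPKM in shControl and 31.3 and 55.3 FPKM in shNeuroD1, so the rise of ID2 rests on the counts and 1 of the shNeuroD1 FPKM tables.

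**Figure D4:**
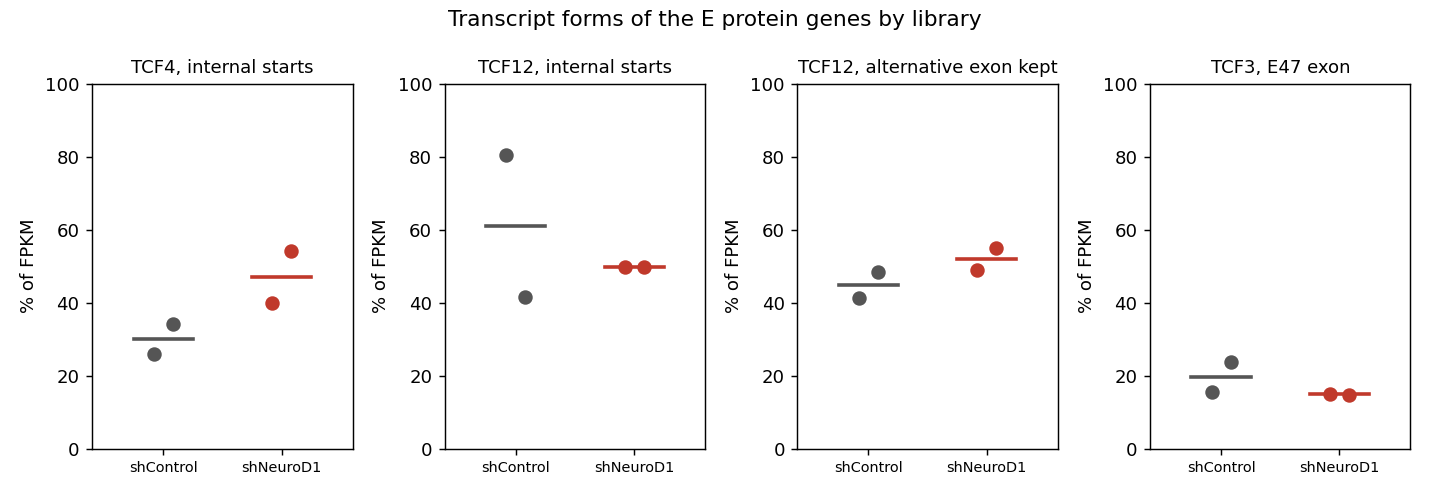
Share of FPKM in each library for TCF4 from its internal starts, TCF12 from its internal start, TCF12 with its alternative exon, and TCF3 with the E47 exon, in percent from 0 to 100, with dots for libraries and lines for group means. The TCF4 share is higher in both shNeuroD1 libraries (39.9% and 54.1%) than in both shControl libraries (25.9% and 34.3%), and the shControl libraries of TCF12 are far apart (80.3% and 41.6%).

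Bases upstream of the transcript starts were searched on both strands for the E-boxes CAGCTG, which E protein pairs are known to bind, and CAGATG, which pairs of NeuroD1 and an E protein are known to bind. Each is 6 bases, and the windows were the 250 bases before each RefSeq start on GRCh38.p14. The 7 genes have 20 such windows, of which 3 held CAGCTG or CAGATG, where 13.99% of the 35116 windows of all genes held CAGCTG and 12.15% held CAGATG. The share of all windows that held either was not computed, so the 3 windows have no matching share beside them. ID2 and ID4 each held CAGCTG, 205 and 21 bases before the start, and 1 of the 10 TCF4 windows held CAGATG, 187 bases before its start. They are shown with 10 bases on each side and the E-box in capitals, and lie at chr2:8681841-8681866 (plus strand), chr6:19837339-19837364 (plus strand) and chr18:55401860-55401885 (minus strand).
ID2 upstream: tttaccacccCAGCTGggctcgcgcc
ID4 upstream: tctataaataCAGCTGcgcggcgggc
TCF4 upstream: ttcctttctgCAGATGgtcatggcag
The windows of TCF3, TCF12, ID1 and ID3 held neither, which says only that these letters are not in those windows. The TCF4 window with CAGATG lies before a RefSeq start at which no FPKM was listed in any library.

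The genes whose pattern over the 4 libraries was nearest to each member were taken as those with the smallest root mean square difference in log2 CPM after each gene was centred on its mean, out of 10554 genes. They were MCM2 and OGFOD1 for TCF12, NUP35 and RTTN for TCF3, and CYB5R4 and CACUL1 for TCF4. For the inhibitors they were EMD and RABL6 for ID1, ZNF580 and RUNDC3A for ID2, and ACOT9 and GABRA5 for ID3. MCM2, a subunit of the replicative helicase, had 176.7 and 176.5 CPM in shControl and 77.4 and 78.6 CPM in shNeuroD1.

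The partners of the E proteins fell more often than they rose. Of 42 class II bHLH genes 18 could be tested, and 12 fell, 1 rose and 5 did not pass (72.2% called, against 55% of all genes), with a median log2 fold change of -0.71 where the median of all genes tested was 0.0084. The 12 include NEUROD1, the target of the knockdown itself. Beside it the largest falls were of NHLH1 (-4.43), a neuronal precursor factor, and NEUROD2 (-4.43), a factor of neuronal differentiation. NEUROD4 (-4.03) came next, at low counts of 29 and 24 in shControl and 0 and 3 in shNeuroD1. BHLHE22 (-3.46), a neuronal repressor, followed. NHLH1 had 590 and 699 counts in shControl, against 27 and 32 in shNeuroD1 (SE 0.140, edgeR adjusted p 1.2e-22). NEUROD2 went from 85 and 115 counts to 4 and 5. BHLHE22 went from 274 and 304 counts to 26 and 26. In counts the E proteins and most of their tested partners were thus lower in the same libraries. In FPKM TCF4 was not lower, and the fits on FPKM held 5 to 11 of the partners and called 2 lower.

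Of 23 genes of E protein cofactors 22 were tested, and 9 fell, 5 rose and 8 did not pass. The share called was 63.6%, against 55% of all genes, and the median was -0.02. CBFA2T3, a corepressor of the ETO family that E proteins recruit, had 210 and 195 counts in shControl, against 16 and 22 in shNeuroD1 (log2 fold change -3.40, edgeR adjusted p 5.4e-15). LMO1, a bridging protein of bHLH complexes and a neuroblastoma susceptibility gene, had 24 and 29 counts and then 52 and 67 (1.17, edgeR adjusted p 0.000428). E-box-binding zinc finger repressors, which compete with bHLH pairs for sites, had 3 of 4 tested genes lower and 1 that did not pass (75% called, median -0.73). Of all genes 55% were called in either direction and 28.2% were called lower. Among the repressors ZEB1 went from 3145 and 3596 counts to 1562 and 1609, or -1.08 in log2 units (SE 0.0482, edgeR adjusted p 9.9e-19).

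BMP ligands act through SMAD proteins to switch on ID genes. In this list 18 of 24 genes were tested, and 7 fell, 6 rose and 5 did not pass. The share called was 72.2%, against 55% of all genes, and with a median of -0.03 the list had no common direction. BMP5, a ligand, rose from 6 and 8 counts in shControl to 319 and 282 in shNeuroD1 (log2 fold change 5.41, SE 0.231, edgeR adjusted p 3.0e-19). SMAD9, a receptor-activated SMAD, went from 5291 and 5818 counts to 2582 and 2516 (-1.11, edgeR adjusted p 2.8e-20). ACVRL1, a type I receptor, had 13 and 10 counts and then 33 and 20 (1.20, edgeR adjusted p 0.014), and CHRD, a secreted BMP antagonist, 65 and 77 and then 32 and 36 (-1.05, edgeR adjusted p 0.000392). The inhibitors ID1 and ID3, both known BMP targets, themselves went in opposite directions.

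ID proteins are short-lived, and USP1 is a deubiquitinase known to stabilise ID1, ID2 and ID3. USP1 had 4697 and 5046 counts in shControl, against 2005 and 2023 in shNeuroD1 (log2 fold change -1.27, SE 0.0444, edgeR adjusted p 1.8e-21). In the list of ID protein turnover all 9 genes were tested, 6 fell and 3 did not pass (median -0.40). Its 66.7% called is near the 55% of all genes called in either direction, while 28.2% of all genes were called lower. The 6 include USP1 as well as a subunit and an activator of the anaphase-promoting complex, while another subunit and another activator did not pass. In edgeR 0 of the 9 genes rose, also at an unadjusted p under 0.05 and in DESeq2. ID2 and ID3 RNA thus rose, and ID1 RNA fell, in the libraries in which USP1 RNA fell, and ID protein was not measured here.

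Of 7 CDK inhibitor genes that E proteins and IDs are known to regulate 6 were tested. Of these 2 fell, 2 rose and 2 did not pass (66.7% called, against 55% of all genes, median -0.002). CDKN1C (p57), the gene of this list with the largest change, had 135 and 145 counts in shControl, against 263 and 273 in shNeuroD1 (log2 fold change 0.94, SE 0.124, edgeR adjusted p 8.7e-08). CDKN1A (p21), the classic E protein target and named here after its values were seen, was at a mean of 64.1 CPM in shControl and 62.3 in shNeuroD1 (edgeR adjusted p 0.61).

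**Figure D5:**
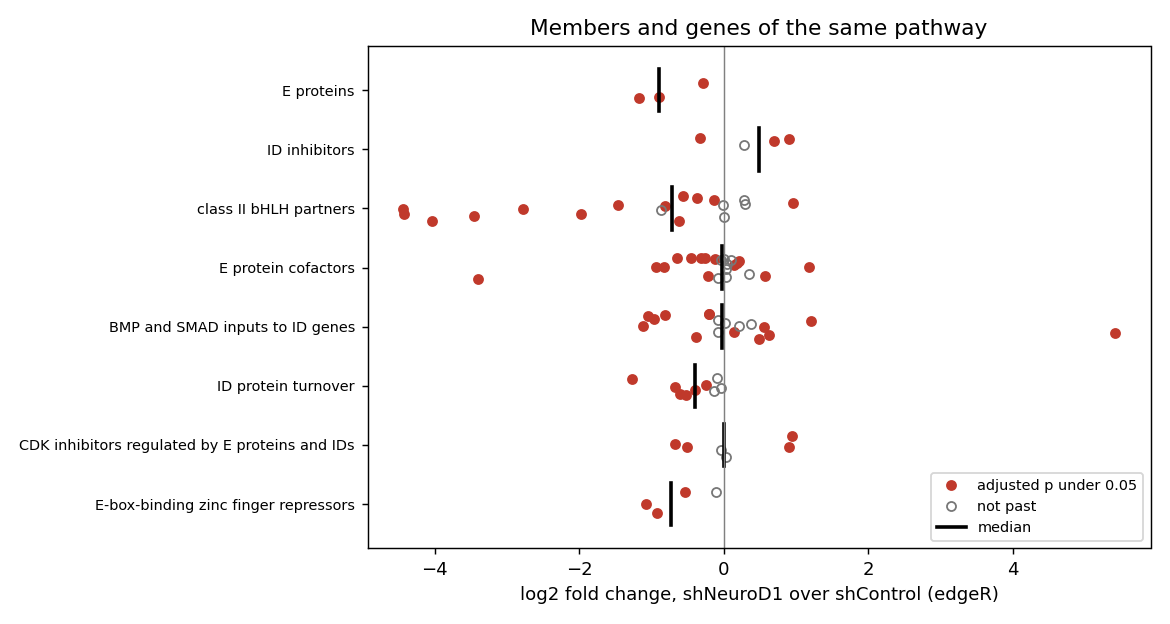
Log2 fold change, shNeuroD1 over shControl, of the 7 members and of each tested gene in the 6 pathway lists, with filled dots for an adjusted p under 0.05 in edgeR, open dots for genes not past it, and a bar at the median of each list. The class II bHLH partners reach down to -4.43 with a median of -0.71, while the cofactor and BMP lists lie on both sides of 0.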

How the data were processed

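The authors deposited raw counts of paired-end reads per Ensembl gene, made with HTSeq 0.6.1. The submitters' processing notes also name cutadapt 1.9.1, HISAT2 2.0.1, DESeq2 and hg38, and the use of strand and the annotation release are not given in the sources used here. The authors also deposited FPKM of transcript starts, ends and splicing events per library, listed only above 0, made with a tool that is not named. Their columns of fold changes and p-values were not used.

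Counts were tested in edgeR 4.0.16 (R 4.3.3) with filterByExpr (minimum count 10, 17537 genes left), TMM scaling and the two-sided quasi-likelihood F test of shNeuroD1 against shControl, with Benjamini-Hochberg adjustment. The SE is the size of the log2 fold change over the square root of F. Gene FPKM was summed over transcript starts and tested with limma 3.58.1 on log2(FPKM + 1), with a mean of at least 1 FPKM. Genes with an end of at least 1 FPKM but no start in a library, ID2 among them, were left out. NEUROD1 was left out by name, and the genes left out came to 264. TCF12, whose starts are listed under a neighbouring gene's ID, was assigned by position. Starts within 10000 bases were grouped, and the 2 groups with the most FPKM were used. Positions and lengths are from GENCODE 29, and upstream bases from RefSeq. Replicates differed beyond counting noise (chi-square per degree of freedom 2.53 in shControl and 1.56 in shNeuroD1).

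The members, lists and tests were chosen with earlier results of these data known. All members are named. NEUROD4 is named for its place among the falls, although its level was too low for the rule that follows. Genes of a list are named where their mean reached 1 CPM and they passed an adjusted p of 0.05 and a log2 fold change of 1, at most 4 by size, or else the gene with the largest change past the adjusted p, and the 2 nearest genes in pattern are named for each member that passed with a mean of at least 10 CPM. Alternatives were DESeq2 1.42.0, other scalings and filters, the replicate number as a block, FPKM, other lengths and leaving out each library. Some genes, a marker list and a sequence are not reported here.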

Additional observations from a re-analysis of the deposited data

How the results depend on the processing

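In all count-based fits over the 4 libraries (DESeq2 size factors, library size alone, no filter, a mean of at least 1 CPM, DESeq2 and the replicate block) the 7 members kept their direction and their side of the threshold. Library size alone moved the median of all genes from 0.0084 to 0.12 on the log2 scale. Leaving out each library in turn (a lone library being assumed to vary like the other group) gave -0.95 to -0.86 for TCF3, -0.33 to -0.26 for TCF4, -1.20 to -1.16 for TCF12, -0.39 to -0.30 for ID1, 0.63 to 0.74 for ID2, 0.85 to 0.93 for ID3, -0.046 (without shNeuroD1 replicate 1) to 0.53 (without shNeuroD1 replicate 2) for ID4 and -2.84 to -2.71 for NEUROD1, and ended none of the 6 member calls. It left 6 to 8 cofactors lower and 1 to 4 higher (1 without shControl replicate 2, 3 without shControl replicate 1 or shNeuroD1 replicate 1), 11 to 12 class II partners lower and 1 to 2 higher (2 without shNeuroD1 replicate 1), 3 to 5 BMP genes higher (3 without either shControl library), 1 to 2 CDK inhibitors higher (1 without shControl replicate 1) and 2 to 3 zinc finger repressors lower. The replicate numbers did not pair the libraries (correlation of deviations 0.0158), and with the replicate block TCF12 was at -1.17, 4 members were lower and 2 higher, and no list count changed.

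The FPKM fits gave other answers, and the cause was not tested. With log2(FPKM + 1), log2(FPKM + 0.1) and log2(FPKM + 1) with no minimum, TCF4 turned to 0.033, 0.034 and 0.033, and ID1, at -0.096, -0.098 and -0.096, no longer passed. TCF3 was at -1.70 with no minimum and just missed the threshold (limma adjusted p 0.0601). Members called lower were 2, 2 and 1 in these 3 fits, and 1, 1 and 1 were called higher. Class II partners called lower were 2, 2 and 2 and higher 0, 0 and 0 (1, 1 and 1 at an unadjusted p under 0.05), cofactors lower 1, 0 and 0 (2, 2 and 3 unadjusted) and higher 0, 0 and 0 (2, 2 and 3 unadjusted), BMP genes lower 0, 0 and 0 (1, 1 and 1 unadjusted) and higher 1, 1 and 1, turnover genes lower 1, 1 and 1, CDK inhibitors lower 0, 0 and 0 (1, 1 and 1 unadjusted) and higher 1, 1 and 0 (2, 2 and 2 unadjusted), and zinc finger repressors lower 0, 0 and 0 (2, 2 and 2 unadjusted). Fewer list genes entered these fits, 5 to 11 class II partners in place of 18, and NEUROD1 was not among them.

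With a log2 fold change beyond 1 required as well, which is stricter by construction, 1 member was lower and 0 were higher in edgeR (2 higher on the adjusted p alone and also at an unadjusted p). By that rule class II partners were 7 lower and 0 higher, cofactors 1 and 1, BMP genes 2 and 2, CDK inhibitors 0 and 0, and 1 turnover gene and 1 zinc finger repressor were lower. Cofactors called higher were 9 with library size alone, 3 with no filter and 3 in DESeq2, against 5. BMP genes called higher were 3 with no filter and 2 in DESeq2, against 6, and class II partners called higher were 2 with no filter, against 1.

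Levels per length depend on the length by construction. With the longest transcript as length, in shControl and shNeuroD1, TCF3 was at 54.0 and 28.9 CPM per kb, TCF4 at 40.3 and 33.1, TCF12 at 80.0 and 35.5, ID2 at 33.3 and 53.9, and ID3 at 18.4 and 34.3, with a ratio of ID to E protein level of 0.664 and 1.43. As gene FPKM, TCF3 was at 27.9 and 7.88, TCF4 at 32.9 and 33.8, TCF12 at 102.5 and 42.7, ID1 at 39.5 and 36.9, ID3 at 13.9 and 26.5, and ID4 at 0.629 and 0.698, with a ratio of 0.331 and 0.761 without ID2. The ratio was higher in shNeuroD1 on each of these 3 scales. With starts of at least 1 FPKM the TCF12 internal share in shNeuroD1 was 50.4%. With E12 read from its own exon event, added after seeing the data, the E47 share was 21.6% and 24.6% in shControl. In shNeuroD1 that share was 16.0% and 15.1% (mean 15.6%), so the groups lay further apart than with E12 joined to the last exon. Summed over transcript ends, also added later and not tested, TCF3 was at -0.76 and ID2 at 0.42 on the log2(FPKM + 1) scale. Shares from transcript ends in place of starts were not run, because TCF12 has no end listed and TCF4 little FPKM at its listed ends. The counts of ID4 and the unknown depth of the FPKM tables limit what can be seen for them.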
